A study of Mus musculus with 12 samples.

Results

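The factors that remove maternal mRNA were examined here in oocytes of mice before and after puberty. The set holds 10 genes, Btg4, Cnot6l, Cnot7, Cnot1, Zfp36l2, Dcp1a, Dcp2, Ythdf2, Pabpn1l and Marf1, picked by symbol for their place in mRNA decay. The choice was made with earlier results of these data known. All 10 were among the 24562 genes counted, and all 10 were among the 13943 that passed the filter on low counts. RNA-Seq had been performed on 12 pools of denuded oocytes, with 18 to 45 oocytes in each, from CD-1 mice that received no gonadotropins. There were 3 pools in each of 4 cohorts, postnatal day (PND) 13, PND 16 divided by body weight into lighter (PND16 Small) and heavier (PND16 Large) animals, and PND 40. In the study's general protocol for collection, oocytes with an intact germinal vesicle were taken and kept in the phosphodiesterase inhibitor milrinone, which holds them in meiotic arrest. The study broadly regards PND13 and PND16 Small oocytes as not yet competent to resume meiosis, and PND16 Large and PND40 oocytes as competent. For the split by weight at PND 16 it cites data from few mice that it did not show. It describes no scoring of competence in the sequenced pools. Competent and non-competent below are names for these groups of cohorts, which also differ in age and body weight.

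A growing oocyte stores transcripts, falls silent in transcription, and then destroys most of the store between the resumption of meiosis and the start of embryonic transcription. Decay usually begins when a deadenylase shortens the poly(A) tail, and proceeds by removal of the cap and digestion of the body of the mRNA. RNA-binding proteins and RNA methylation decide which transcripts are taken first. The factors themselves are made beforehand, many from mRNAs that stay dormant until maturation, so the level of their mRNA in a germinal vesicle oocyte is a store and not a rate of decay.

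Levels are given as CPM, the reads on a gene for each 1000000 reads of its pool, after TMM scaling. TMM, the trimmed mean of M-values, evens out differences in composition between pools. A CPM is a share of the RNA counted in a pool, and in pools such as these fewer cells of a type and less RNA per cell cannot be told apart. Fold changes, their SE and adjusted p-values are those of the quasi-likelihood test in edgeR, adjusted for all genes tested by the method of Benjamini and Hochberg. A gene was called when the adjusted p was at most 0.05 and the change at least 1.5-fold. Summed over the 10 genes, reads made up 0.581% to 0.641% of all reads in the 6 non-competent pools and 0.717% to 0.747% in the 6 competent pools, so the groups did not overlap. These shares are without TMM scaling. They rest mostly on the genes with most reads, Dcp1a, Cnot6l and Btg4 (means of 1735, 1251 and 1049 CPM), and Ythdf2 and Zfp36l2 were lower in competent oocytes.

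Total counts were 17671193 to 27418358 per pool. The chi-square per gene between 2 pools of a cohort was 9.68 to 54.4, so none was a repeat of another within sampling noise. Markers of the oocyte (10 genes) summed to 15034 to 19410 CPM in every pool, and markers of granulosa and cumulus cells (14 genes) summed to 131 to 572 CPM, with none of the 14 at 0 in any pool. The latter were highest in 3 non-competent pools (PND16 Small replicate 2 at 572, PND13 replicate 3 at 542 and PND13 replicate 1 at 467 CPM) and lay between 131 and 253 CPM in the other 9. Markers of theca and stroma (8 genes) summed to at most 47.4 CPM and those of blood (7 genes) to at most 2.72 CPM. The ribosomal RNA precursor Rn45s took 1.46% to 2.98% of reads in the non-competent pools and 0.520% to 0.954% in the competent pools. The Rn45s shares of the 2 groups did not overlap, so every difference between competent and non-competent pools below runs along with them. The part of Rn45s in the member results was not tested. Granulosa marker sums are given where a result ran along with them.

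RefSeq start sites (GRCm38.p6) were matched for 6 of the 10 genes, and the 300 bases around the start (250 before, 50 after) are shown for 3 whose mRNAs went in different directions. Btg4 was higher in competent oocytes, Ythdf2 was lower, and Pabpn1l was highest at PND40. Capitals mark the E-box (CANNTG on either strand, which is the same on both), the element bound by basic helix-loop-helix factors such as the oocyte factor FIGLA.
Btg4, chr9:51115751-51116050, plus strand: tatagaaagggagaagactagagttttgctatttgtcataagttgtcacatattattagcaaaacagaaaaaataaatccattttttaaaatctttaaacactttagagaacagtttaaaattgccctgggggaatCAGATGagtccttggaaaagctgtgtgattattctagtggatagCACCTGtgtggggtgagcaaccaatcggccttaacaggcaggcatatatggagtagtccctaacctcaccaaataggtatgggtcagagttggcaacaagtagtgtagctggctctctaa
Pabpn1l, chr8:122622686-122622985, minus strand: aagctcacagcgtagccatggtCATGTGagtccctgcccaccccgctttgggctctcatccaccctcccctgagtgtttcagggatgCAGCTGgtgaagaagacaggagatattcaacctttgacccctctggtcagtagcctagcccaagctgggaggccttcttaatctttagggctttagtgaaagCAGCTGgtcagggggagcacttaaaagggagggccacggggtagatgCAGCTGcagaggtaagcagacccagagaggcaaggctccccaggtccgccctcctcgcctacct
Ythdf2, chr4:132212207-132212506, minus strand: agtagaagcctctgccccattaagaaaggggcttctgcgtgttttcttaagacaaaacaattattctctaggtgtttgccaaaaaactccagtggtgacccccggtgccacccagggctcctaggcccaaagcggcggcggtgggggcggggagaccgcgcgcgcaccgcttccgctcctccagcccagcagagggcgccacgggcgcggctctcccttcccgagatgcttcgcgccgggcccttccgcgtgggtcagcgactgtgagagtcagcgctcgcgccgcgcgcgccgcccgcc
The Pabpn1l window held 4 E-boxes, the Btg4 window 2 and the Ythdf2 window 0. Of the other matched genes, whose sequences are not shown, Dcp1a held 1 and Marf1 0. The start sites of Cnot6l held 0, 2 and 1. Among 32851 start sites of mouse genes, 72.3% held at least 1 E-box in a window of this length, 39.6% at least 2 and 6.49% at least 4. In base composition, the Btg4 window had 39.0% G and C, the Pabpn1l window 57.7% and the Ythdf2 window 66.3%, beside a median of 52.7% for all windows. These matches are letters in a window and were not tested for binding. The RefSeq start used for Btg4 lies inside the gene range of GENCODE M21 (51060901 to 51119875, plus strand). Its window is therefore not at the outer start of that range.

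Per kilobase of exon, which allows genes to be compared with each other, Btg4 was the most abundant of the 10 at 411 CPM per kb over the 12 pools, rank 40 of 13750 genes with a length. It was followed by Dcp1a at 211 CPM per kb (rank 106), Pabpn1l at 135 CPM per kb (rank 198) and Cnot6l at 121 CPM per kb (rank 229). Cnot7 lay at 92.0 CPM per kb (rank 336), Marf1 at 69.7 CPM per kb (rank 488) and Dcp2 at 47.0 CPM per kb (rank 838). Ythdf2 at 39.5 CPM per kb (rank 1058) and Cnot1 at 39.3 CPM per kb (rank 1065) overlapped, and Zfp36l2 was lowest at 12.2 CPM per kb (rank 3611). The lowest Btg4 pool (316 CPM per kb) was above the highest Dcp1a pool (259 CPM per kb), and the highest Zfp36l2 pool (17.8 CPM per kb) was below the lowest Cnot1 pool (34.1 CPM per kb). From Dcp1a down to Marf1, and from Dcp2 down to Cnot1, the pools of each gene overlapped those of the next.

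**Figure D1:**
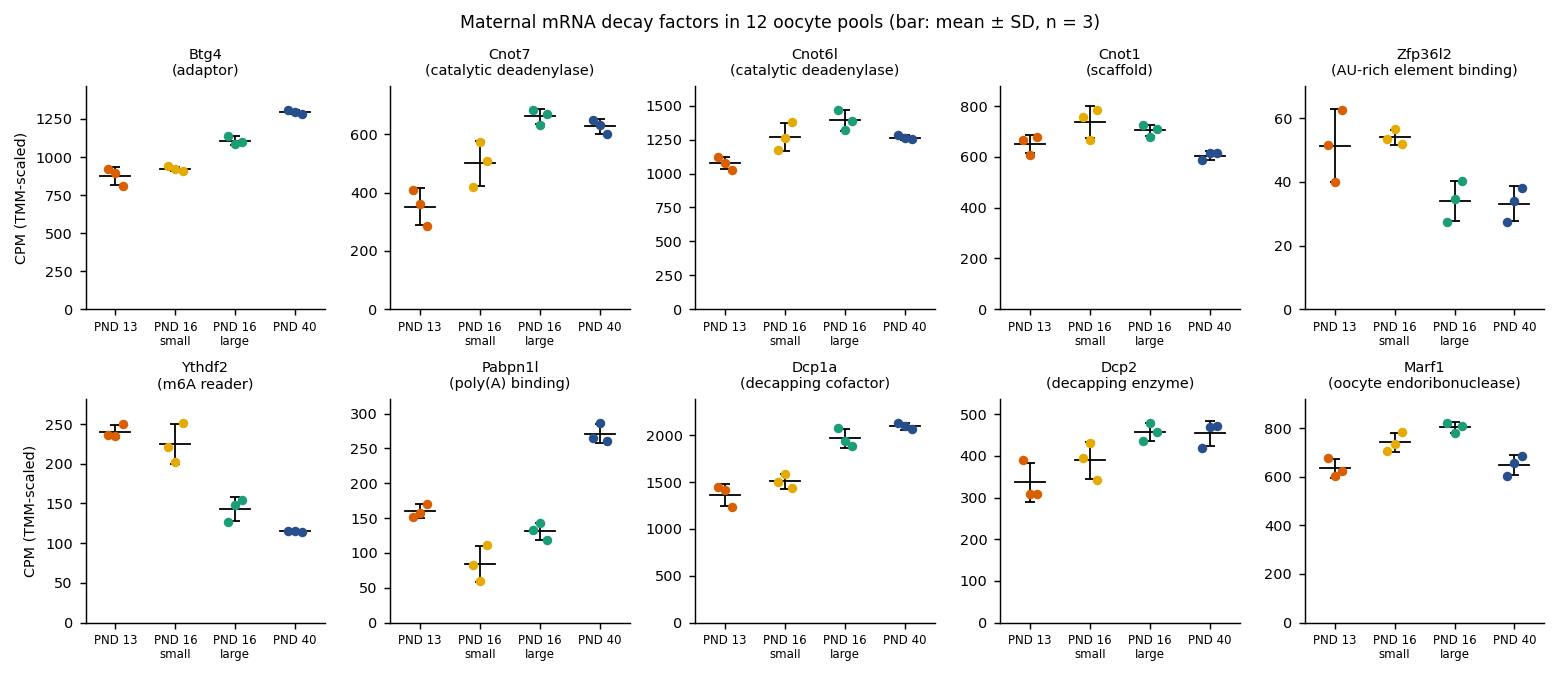
CPM of the 10 decay factors (y axis, from 0, a scale for each gene) in the 3 pools of each cohort (x axis, points), with the mean and SD. Btg4 and Dcp1a are higher, and Ythdf2 lower, in every PND16 Large and PND40 pool than in every PND13 and PND16 Small pool, whereas Pabpn1l is lowest in PND16 Small and highest at PND40.

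In competent vs. non-competent oocytes (6 pools vs. 6), 3 of the 10 genes were called, Cnot7 higher and Ythdf2 and Zfp36l2 lower, beside 15.0% of all genes tested (3.78% higher and 11.2% lower). With the adjusted p alone and no minimum fold, 6 of the 10 passed, beside 30.7% of all genes. The added 3 were Btg4, Dcp1a and Dcp2, all higher in competent oocytes. In 4 of the 10 genes (Btg4, Cnot7, Dcp1a and Ythdf2) the pools of the 2 groups did not overlap, beside 14.7% of all genes. The median log2 fold change was 0.25 over the 10 and -0.00458 over all genes tested.

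**Figure D2:**
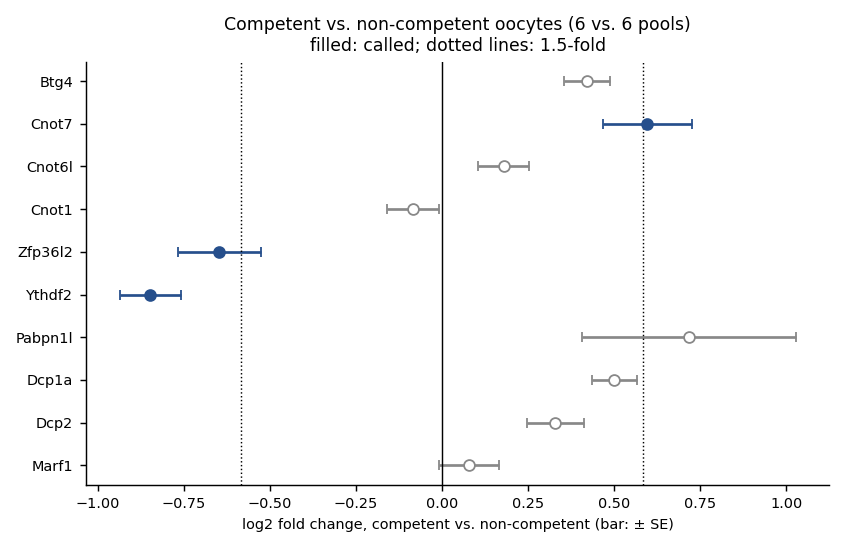
Log2 fold change of each decay factor in competent vs. non-competent oocytes (x axis, with SE), 1 row a gene. Filled points are the called genes Cnot7 (0.60), Zfp36l2 (-0.65) and Ythdf2 (-0.85), and Pabpn1l has the widest error.

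Btg4 is an adaptor of the BTG/TOB family that brings the CCR4-NOT deadenylase to maternal mRNAs during meiotic maturation. The gene lies on chromosome 9 (GRCm38, 51060901 to 51119875, plus strand). Its 3 pools had 919, 893 and 807 CPM at PND13 and 938, 919 and 908 CPM in PND16 Small. They had 1139.7, 1084 and 1099 CPM in PND16 Large and 1311, 1294 and 1281 CPM at PND40. The cohorts thus stood in the order PND40, PND16 Large and then the 2 non-competent cohorts, and only PND13 and PND16 Small overlapped. Btg4 was higher in competent oocytes by 0.42 on the log2 scale (1.34-fold, SE 0.066, adjusted p = 0.000398), below the 1.5-fold criterion. In the pairwise comparisons its log2 difference ranged from 0.08 (PND16 Small vs. PND13) to 0.57 (PND40 vs. PND13). The adjusted p was at most 0.05 in 5 of the 6, and none reached 1.5-fold.

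Cnot7 and Cnot6l encode nucleases of the CCR4-NOT complex, which shorten the poly(A) tail, and Cnot1 encodes the scaffold that holds them. Cnot7 (chromosome 8, 40492540 to 40515847, minus strand) had 409.8, 362 and 284 CPM at PND13 and 421, 574 and 508 CPM in PND16 Small. It had 685, 633 and 668 CPM in PND16 Large and 649, 632 and 601 CPM at PND40. The level climbed between PND13 and PND16 Large and the pools of PND16 Large and PND40 overlapped. Against PND13, Cnot7 rose 1.88-fold in PND16 Large (log2 0.91, SE 0.125, adjusted p = 0.000509) and 1.78-fold at PND40 (log2 0.83, SE 0.125, adjusted p = 0.000365). In competent oocytes it rose 1.51-fold (log2 0.60, SE 0.129, adjusted p = 0.00346), close to the minimum fold. Without 1 of 4 pools it fell under that minimum, to a log2 change of 0.50 without PND13 replicate 3, 0.55 without PND13 replicate 2, 0.57 without PND16 Large replicate 1 and 0.58 without PND16 Large replicate 3, with adjusted p-values of at most 0.00789. Without the 3 pools highest in granulosa markers it was 0.59 (log2, adjusted p = 0.00183). PND16 Small pools lay between the others, and neither of their differences from PND13 (log2 0.51, adjusted p = 0.0622) and PND16 Large (log2 0.40 from PND16 Small, adjusted p = 0.0517) passed the test.

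Cnot6l (chromosome 5, 96070333 to 96164171, minus strand) had 1122, 1081 and 1029 CPM at PND13, 1175, 1261 and 1377 CPM in PND16 Small, 1471, 1318 and 1386 CPM in PND16 Large and 1284, 1261 and 1251 CPM at PND40. The PND13 pools were below all others, and the other 3 cohorts were not in an order that the pools could separate, apart from PND40 under PND16 Large. The difference in competent oocytes was 0.18 on the log2 scale (SE 0.074, adjusted p = 0.0827), and over the pairwise comparisons it ranged from -0.14 to 0.37, with no call. Cnot1 (chromosome 8, 95719451 to 95807464, minus strand) had 666, 609 and 677 CPM at PND13, 759, 668 and 786 CPM in PND16 Small, 724, 679 and 710.2 CPM in PND16 Large and 586, 614 and 616 CPM at PND40. The Cnot1 pools of PND40 were below all those of both PND16 cohorts and overlapped those of PND13. The difference between PND40 and PND16 Small was -0.29 (log2, adjusted p = 0.00917), below 1.5-fold. In competent oocytes the difference was -0.08 (log2, SE 0.075, adjusted p = 0.423). The 3 subunits of 1 complex therefore had unlike values, with a call for the nuclease Cnot7 and none for Cnot6l or Cnot1. The difference between them was not tested.

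Ythdf2 is a reader of N6-methyladenosine that directs methylated mRNAs to deadenylation and is required in the oocyte for maternal mRNA dosage. The gene lies on chromosome 4 (132184912 to 132212303, minus strand). Its pools had 236, 234 and 249 CPM at PND13 and 221, 203 and 251 CPM in PND16 Small. They had 126, 148 and 155 CPM in PND16 Large and 115, 116 and 114 CPM at PND40. Every competent pool was below every non-competent pool, and the 3 PND40 pools lay within 114 to 116 CPM. Ythdf2 fell by 0.85 on the log2 scale in competent oocytes (to 0.555 of the non-competent level, SE 0.089, adjusted p = 2.68e-05). Against PND13 it fell by 0.75 in PND16 Large (log2, SE 0.089, adjusted p = 0.000273) and by 1.06 at PND40 (SE 0.090, adjusted p = 2.60e-05). Against PND16 Small it fell by 0.65 in PND16 Large (log2, SE 0.089, adjusted p = 0.00188) and by 0.97 at PND40 (SE 0.090, adjusted p = 2.38e-05). The further difference of -0.32 between PND40 and PND16 Large (log2, adjusted p = 0.0499) was below 1.5-fold, as was that between PND16 Small and PND13 (-0.09, adjusted p = 0.612). The call in PND16 Large vs. PND16 Small fell below 1.5-fold (log2 -0.56) without PND16 Large replicate 1 or PND16 Small replicate 3, and the others were kept without any 1 pool. Without the 3 pools highest in granulosa markers, the fall in competent oocytes was 0.86 (log2, adjusted p = 0.000505).

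The family of cytoplasmic readers has 3 members, and their values differed, though the difference between them was not tested. Ythdf1 had 122, 100.1 and 113 CPM at PND13, 114, 76.1 and 82.0 CPM in PND16 Small, 45.8, 64.8 and 54.3 CPM in PND16 Large and 44.8, 47.0 and 49.9 CPM at PND40. Like Ythdf2, it was lower in every competent pool than in every non-competent pool, with a fall of 0.99 on the log2 scale (SE 0.126, adjusted p = 9.61e-05). Ythdf3 was at 402 to 544 CPM in all 12 pools, and its difference was 0.04 (log2, SE 0.069, adjusted p = 0.702). Per kilobase, Ythdf3 stood at 87.3 CPM per kb in non-competent and 89.7 CPM per kb in competent oocytes, whereas Ythdf2 went from 50.8 to 28.2 CPM per kb and Ythdf1 from 30.5 to 15.4 CPM per kb.

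**Figure D3:**
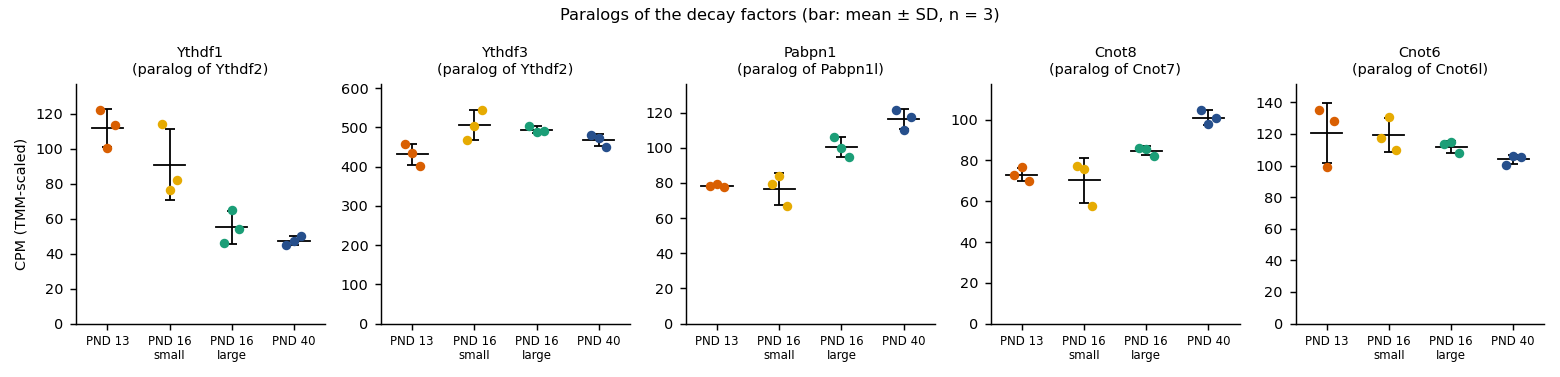
CPM of 5 paralogs of the decay factors (y axis, from 0) in the 3 pools of each cohort (x axis, points), with the mean and SD. Ythdf1 is lower and Pabpn1 and Cnot8 are higher in all competent pools than in all non-competent pools, while the groups overlap for Ythdf3 and Cnot6.

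Zfp36l2 binds AU-rich elements and recruits the deadenylase to the mRNAs that carry them, and female mice in which it is disrupted are infertile. The gene lies on chromosome 17 (84183931 to 84187947, minus strand). Its pools had 51.5, 39.9 and 62.7 CPM at PND13 and 53.4, 56.5 and 52.0 CPM in PND16 Small. They had 27.5, 34.6 and 40.2 CPM in PND16 Large and 27.4, 34.0 and 38.1 CPM at PND40. The PND16 Small pools were above all competent pools, but PND13 replicate 2 (39.9 CPM) was below PND16 Large replicate 3 (40.2 CPM). Zfp36l2 fell by 0.65 on the log2 scale in competent oocytes (to 0.638 of the non-competent level, SE 0.121, adjusted p = 0.00121). In PND16 Large it fell by 0.59 from PND13 (log2, SE 0.175, adjusted p = 0.0247) and by 0.66 from PND16 Small (SE 0.175, adjusted p = 0.0270). At PND40 it fell by 0.63 from PND13 (log2, SE 0.175, adjusted p = 0.0140) and by 0.70 from PND16 Small (SE 0.175, adjusted p = 0.00879). These pairwise calls were sensitive to the fit and to single pools. In PND16 Large vs. PND13 the call was lost with limma on the deposited log2 values (log2 -0.58, below 1.5-fold) and with only these cohorts in the model (adjusted p = 0.0520). There the adjusted p was 0.0579 without PND13 replicate 1, 0.131 without PND13 replicate 3 (log2 -0.42), 0.110 without PND16 Large replicate 1 and 0.0608 without PND16 Large replicate 2. In PND16 Large vs. PND16 Small it was 0.138 without PND16 Large replicate 1, 0.0830 without PND16 Large replicate 2, 0.0568 without PND16 Small replicate 2 and 0.0566 without PND16 Small replicate 3. At PND40 the call against PND13 was lost without PND13 replicate 3 (log2 -0.46, adjusted p = 0.0821) or PND40 replicate 1 (log2 -0.51, adjusted p = 0.0695), and that against PND16 Small fell below 1.5-fold without PND40 replicate 1 (log2 -0.58). In competent vs. non-competent oocytes the call was kept without any 1 pool (log2 -0.72 to -0.59).

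The Zfp36l2 values ran along with the granulosa and cumulus markers among the PND13 pools. PND13 replicate 2, with the lowest marker sum (131 CPM), had the lowest Zfp36l2 level of that cohort, and PND13 replicate 3, with a marker sum of 542 CPM, had the highest level of all 12 pools (62.7 CPM). PND16 Small replicates 1, 2 and 3, with marker sums of 187, 572 and 253 CPM, had Zfp36l2 at 53.4, 56.5 and 52.0 CPM. PND13 replicate 1, with a marker sum of 467 CPM, had 51.5 CPM. Without the 3 pools with the highest marker sums, an alternative chosen after the data were seen, the difference was -0.52 in competent oocytes (log2, adjusted p = 0.0278) and no longer 1.5-fold. The differences from PND13 were then -0.22 in PND16 Large (adjusted p = 0.555) and -0.26 at PND40 (adjusted p = 0.461), and PND13 was left with 1 pool, assumed to vary like the others. The part of these cells in the Zfp36l2 result was not tested further. For Ythdf2, PND13 replicates 2, 1 and 3 were at 234, 236 and 249 CPM, with marker sums of 131, 467 and 542 CPM. The relation of Ythdf2 to the markers was not tested.

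**Figure D4:**
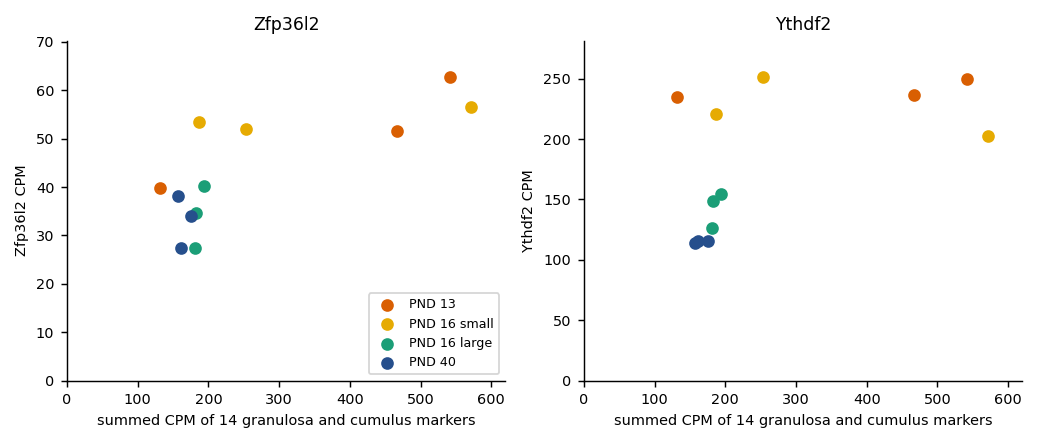
CPM of Zfp36l2 (left) and Ythdf2 (right) on the y axes against the summed CPM of 14 granulosa and cumulus markers (x axes), 1 point a pool, colored by cohort. The 3 pools farthest to the right are all non-competent, and the PND13 pool at 131 CPM has the lowest Zfp36l2 (39.9 CPM) and the lowest Ythdf2 (234 CPM) of its cohort.

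Of the paralogs of Zfp36l2, Zfp36 and Zfp36l1 were near the limit of counting, at 0.557 to 2.43 CPM and 0.172 to 2.58 CPM. Zfp36l1 was called lower in competent oocytes (log2 -1.65, SE 0.563, adjusted p = 0.0378) on 4 to 54 reads a pool. Its highest levels, 2.58, 2.23 and 2.13 CPM, were in the same 3 pools that were highest in granulosa markers. Zfp36 differed by -0.34 (log2, adjusted p = 0.463).

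Pabpn1l encodes an oocyte-specific poly(A)-binding protein that acts with BTG4 in the removal of maternal mRNA. The gene lies on chromosome 8 (122619471 to 122622739, minus strand). Its pools had 152, 158 and 171 CPM at PND13 and 83.3, 58.9 and 111 CPM in PND16 Small. They had 132, 142 and 118 CPM in PND16 Large and 265, 287 and 261 CPM at PND40. No 2 cohorts overlapped, and the order was PND40, PND13, PND16 Large and PND16 Small, which follows neither age nor competence. Pabpn1l was the only 1 of the 10 called in PND16 Small vs. PND13 (0.373% of all genes) and in PND40 vs. PND16 Large (3.66% of all genes). From PND13 to PND16 Small it fell by 0.93 on the log2 scale (SE 0.170, adjusted p = 0.0347), and from PND16 Large to PND40 it rose 2.07-fold (log2 1.05, SE 0.169, adjusted p = 0.00461). At PND40 it was 1.69-fold above PND13 (log2 0.76, SE 0.168, adjusted p = 0.00496) and 3.22-fold above PND16 Small (log2 1.69, SE 0.172, adjusted p = 7.38e-05). It was also 1.55-fold higher in PND16 Large than in PND16 Small (log2 0.64, SE 0.169, adjusted p = 0.0318).

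With such differences inside each group, the comparison of competent with non-competent oocytes gave 0.72 on the log2 scale with a wide error (SE 0.310, adjusted p = 0.1002). In the model of the 4 cohorts, where each cohort has its own mean, the same contrast gave 0.70 (SE 0.119, adjusted p = 0.000805). The calls at PND40 were kept without any 1 pool. The call in PND16 Large vs. PND16 Small was lost without PND16 Large replicate 1 (adjusted p = 0.103), PND16 Large replicate 2 (adjusted p = 0.0998), PND16 Small replicate 1 (adjusted p = 0.0787) or PND16 Small replicate 2 (log2 0.44, below 1.5-fold). The call in PND16 Small vs. PND13 was lost without PND13 replicate 2 (log2 -0.96, adjusted p = 0.0544) and without PND13 replicate 3 (log2 -0.88, adjusted p = 0.159). Without the 3 pools highest in granulosa markers the latter comparison gave -0.71 (log2, adjusted p = 0.122) and the former 0.44 (adjusted p = 0.0311), and neither was a call. Pabpn1, the nuclear paralog found in all cells, was at 78.1, 79.5 and 77.7 CPM at PND13, 79.4, 83.7 and 66.6 CPM in PND16 Small, 106, 99.8 and 94.98 CPM in PND16 Large and 121, 110.2 and 118 CPM at PND40. It differed by 0.48 in competent oocytes (log2, SE 0.075, adjusted p = 0.000384), below 1.5-fold. Of the pairwise comparisons, Pabpn1 was called in PND40 vs. PND16 Small (1.52-fold, log2 0.60, adjusted p = 0.000329). Its PND16 Small pools overlapped those of PND13, unlike those of Pabpn1l.

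Dcp2 encodes the enzyme that removes the cap and Dcp1a its activator, both made from dormant maternal mRNAs in the mouse oocyte. Dcp1a (chromosome 14, 30479535 to 30527063, plus strand) had 1452, 1414 and 1231 CPM at PND13 and 1499, 1587 and 1437 CPM in PND16 Small. It had 2079.8, 1937 and 1888 CPM in PND16 Large and 2133, 2096 and 2064 CPM at PND40. Every competent pool was above every non-competent pool, and within each of the groups the pools of the 2 cohorts overlapped. Dcp1a was higher in competent oocytes by 0.50 on the log2 scale (1.41-fold, SE 0.065, adjusted p = 0.000103), below the minimum fold. It was called in PND40 vs. PND13, where it rose 1.54-fold (log2 0.62, SE 0.074, adjusted p = 7.17e-05). That value was 0.55 without PND13 replicate 3 (log2, adjusted p = 0.000413) and 0.57 without the 3 pools highest in granulosa markers (adjusted p = 0.00286), both below 1.5-fold. Dcp2 had 390.3, 309 and 309 CPM at PND13, 396, 430.4 and 342 CPM in PND16 Small, 436, 479 and 458 CPM in PND16 Large and 419.6, 469.5 and 472 CPM at PND40. The Dcp2 pools of PND16 Large were above those of PND16 Small, whereas those of PND40 overlapped both and those of PND13 overlapped PND16 Small. Its difference in competent oocytes was 0.33 (log2, SE 0.083, adjusted p = 0.00820). The paralog Dcp1b was at 0.119 to 1.56 CPM, at most 0.247 CPM per kb, where the lowest Dcp1a pool was at 149.6 CPM per kb.

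Marf1 is an endoribonuclease needed in the oocyte for meiosis and for the control of retrotransposon transcripts. It lies on chromosome 16 (14109173 to 14163351, minus strand). Its pools had 676, 603 and 625 CPM at PND13, 706, 736 and 784 CPM in PND16 Small, 822, 779.7 and 809 CPM in PND16 Large and 604, 658 and 685 CPM at PND40. Both PND16 cohorts were above both others, and the difference in competent oocytes was 0.08 (log2, SE 0.088, adjusted p = 0.537). The difference of 0.34 between PND16 Large and PND13 (log2, adjusted p = 0.00405) and that of -0.31 between PND40 and PND16 Large (adjusted p = 0.0202) had opposite signs, and neither was a call.

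Over the 6 pairwise comparisons, 16 of the 60 tests of a member were calls, 7 higher and 9 lower, and 5 of the genes made all of them (Cnot7, Zfp36l2, Dcp1a, Ythdf2 and Pabpn1l). The count was 3 of 10 in PND16 Large vs. PND13 (13.3% of all genes) and 5 of 10 in PND40 vs. PND13 (18.9% of all genes). It was 3 of 10 both in PND16 Large vs. PND16 Small (6.19% of all genes) and in PND40 vs. PND16 Small (17.2% of all genes). These comparisons share pools, so their counts are not independent. In the other 44 tests the log2 difference lay between -0.32 and 0.57, and the adjusted p was at most 0.05 in 16 of them.

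For the other paralogs, the deadenylase Cnot8, which is close to Cnot7, differed by 0.37 in competent oocytes (log2, SE 0.086, adjusted p = 0.00480), and its competent pools (82.4 to 105 CPM) were all above the others (57.5 to 77.3 CPM). Cnot6, which is close to Cnot6l, lay at 99.0 to 135 CPM and differed by -0.15 (log2, adjusted p = 0.142). Per kilobase, Cnot6l was at 121 CPM per kb over all pools and Cnot6 at 17.2 CPM per kb. In the family of Btg4, Btg1 was at 15.8 to 25.4 CPM and Btg2 at 5.64 to 25.1 CPM, with differences of -0.18 (adjusted p = 0.191) and 0.37 (log2, adjusted p = 0.308). Btg3 had no read in 10 of the 12 pools and at most 3 in the others.

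The other genes of mRNA decay were taken as lists, from which the 10 genes above were left out for the total. Of 92 tested, 0 were called higher and 16 lower in competent oocytes (17.4%), beside 3.78% higher and 11.2% lower of all genes, and the median log2 difference was -0.00530 beside -0.00458 for all genes. At the same minimum fold, DESeq2 also called 0 higher and 16 lower, and every other fit tried called 0 higher and 13 to 16 lower. With no minimum fold, 17 of the 92 were higher and 21 lower at an adjusted p of at most 0.05 by edgeR. At an unadjusted p of at most 0.05, 22 were higher. The absence of higher calls thus holds for changes of at least 1.5-fold, and it was not shared by every pairwise comparison. Of the 92, PND16 Large vs. PND13 had 2 called higher (Virma, log2 0.61, and Ythdc1, 0.65) and 13 lower, beside 13.3% of all genes. PND40 vs. PND13 had 2 higher (Virma, 0.61, and Upf2, 0.79) and 18 lower, beside 18.9%. PND40 vs. PND16 Small had 2 higher (Btg2, 0.97, and Pabpn1, 0.60) and 15 lower, beside 17.2%. PND16 Large vs. PND16 Small had 0 higher and 5 lower, beside 6.19%. PND40 vs. PND16 Large had 0 higher and 1 lower, beside 3.66%, and PND16 Small vs. PND13 had 0 higher and 0 lower, beside 0.373%.

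The CCR4-NOT complex (11 genes tested) had 1 call, Cnot7 itself. In the BTG/TOB family (5 genes tested), the adaptor Tob1 fell from 68.7 ± 12.4 to 34.3 ± 2.18 CPM (SD, n = 6 each, log2 -1.004, adjusted p = 4.87e-05). Other deadenylases (7 tested) and the uridylation enzymes (3 tested, of which 2, Zcchc11 and Zcchc6, are listed under their older symbols) had no call. For the first of these the log2 differences lay between -0.47 and 0.27 at the ends, and for the second Zcchc11 was at -1.35 with an adjusted p of 0.114.

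Among decapping and 5′ to 3′ decay factors (18 tested), 4 were called lower and 0 higher. Pnrc2, a decapping coactivator, went from 5.51 ± 1.81 to 1.99 ± 0.607 CPM (log2 -1.47, adjusted p = 0.00108). The helicase Ddx6, which represses translation and promotes decapping, went from 299 ± 36.0 to 120 ± 16.6 CPM (log2 -1.32, adjusted p = 1.20e-05). Dcp1a, in the same list, had the largest positive difference, 0.50. Of the exosome and SKI factors (16 tested), which digest from the 3′ end, 5 were called lower and 0 higher. They were led by the exosome subunit Exosc6 (12.9 ± 4.96 to 6.01 ± 0.804 CPM, log2 -1.10, adjusted p = 0.00148) and the helicase Skiv2l (52.7 ± 14.2 to 26.2 ± 7.35 CPM, log2 -1.01, adjusted p = 0.00295).

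In the list of AU-rich element and Pumilio proteins (12 tested), 3 were called lower and 0 higher, namely Zfp36l1, Zfp36l2 and Rc3h2. Rc3h2, a stem-loop binding protein of the Roquin family, went from 41.2 ± 9.14 to 20.5 ± 2.12 CPM (log2 -1.01, adjusted p = 0.000120). In the list for N6-methyladenosine (14 tested), 3 were called lower and 0 higher, namely the readers Ythdf1 and Ythdf2 and the writer cofactor Cbll1 (47.2 ± 8.14 to 31.2 ± 3.74 CPM, log2 -0.60, adjusted p = 0.00178). The writer cofactors Wtap (log2 0.36, adjusted p = 0.00144) and Virma (log2 0.41, adjusted p = 0.00685) were higher in every competent pool than in every non-competent pool, below 1.5-fold. Ythdc2 of the same list was lower in every competent pool, also below 1.5-fold (log2 -0.43, adjusted p = 0.00209). Among poly(A)-binding proteins (5 tested), Pabpc1 fell from 62.3 ± 11.4 to 39.1 ± 3.89 CPM (log2 -0.67, adjusted p = 0.000684), and among factors of nonsense-mediated decay (10 tested), Smg5 fell from 36.8 ± 4.18 to 24.5 ± 3.75 CPM (log2 -0.59, adjusted p = 0.00135). The share of Rn45s reads and, in 3 pools, the granulosa markers were also higher in the non-competent pools. Without those 3 pools, 13 of the 16 list genes kept their call, and Zfp36l1 (log2 -0.71, adjusted p = 0.512), Pabpc1 (log2 -0.50, adjusted p = 0.0101) and Exosc4 (log2 -0.45, adjusted p = 0.101) lost it. Smg5 (log2 -0.56 to -0.54) and Cbll1 (log2 -0.58 to -0.52) fell below 1.5-fold when any 1 of 5 pools was left out, PND13 replicate 2, PND16 Small replicate 1 or PND40 replicate 1, 2 or 3. Zfp36l1 lost its call in 8 of 12 such fits (adjusted p = 0.0539 to 0.0892), and Exosc4 in 3 of 12, without PND13 replicate 1 or 3 or PND16 Large replicate 1 (log2 -0.57 to -0.55). The part of Rn45s in these differences was not tested.

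**Figure D5:**
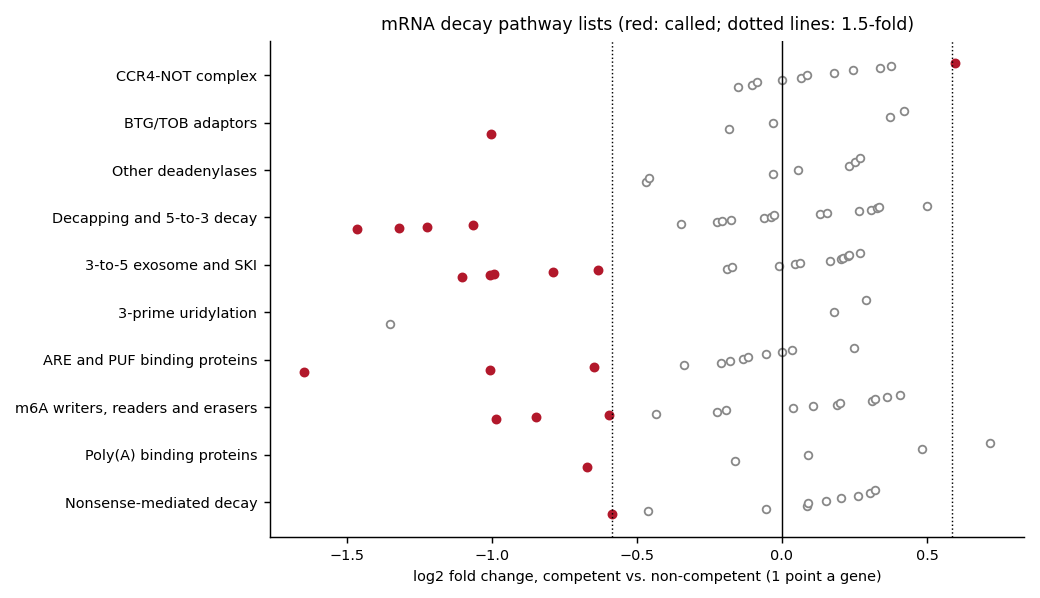
Log2 fold change in competent vs. non-competent oocytes (x axis) of each gene tested in 10 lists of mRNA decay factors (rows, 1 point a gene), with called genes in red. Cnot7 is the only red point on the right, and the red points on the left include Ythdf1, Ythdf2, Ddx6 and Tob1.

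Across the 12 pools, the genes outside the set that were most like Ythdf2 in log2 CPM were Fam120a (Pearson r = 0.992), Ppp2r3a (r = 0.990) and Senp2 (r = 0.989). Among those most like Cnot7 were Tiparp (r = 0.989) and Ggta1 (r = 0.984), and those most like Zfp36l2 were Man1b1 (r = 0.958), Cpsf6 (r = 0.948) and Lrrc58 (r = 0.942). Within the set, Btg4 and Dcp1a had r = 0.964, and Ythdf2 had r = -0.971 with Btg4 and r = -0.972 with Dcp1a. The pools fall into cohorts, and the values share their libraries, so these correlations are descriptions and carry no test.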

How the data were processed

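RNA-Seq was performed by the authors on 12 pools of oocytes, from rRNA-depleted directional libraries sequenced on a HiSeq, and processed on the Rosalind platform. The submitters' processing notes name FastQC, STAR, HTSeq, DESeq2, HOMER and the build mm10, without versions, and whether counting used strand is not given in the sources used here. Opposite-strand genes overlap Btg4, Cnot7, Cnot1, Zfp36l2, Dcp1a, Pabpn1l and Marf1, and same-strand genes overlap Cnot1, Pabpn1l and Marf1, so reads could be shared there. The authors deposited raw counts per gene (24562 genes), which were used for the main tests, and the authors deposited log2 values of size-factor-scaled counts plus 1, which were used in 1 alternative.

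Cohorts and replicate numbers came from the sample labels. Genes were kept by filterByExpr (minimum count 10, 13943 genes) and scaled by TMM (edgeR 4.0.16, R 4.3.3). The 6 pairwise comparisons were taken from 1 robust quasi-likelihood model of the 4 cohorts, and competent vs. non-competent from a model of 2 groups. A call needed an adjusted p of at most 0.05 and a 1.5-fold change, and SE is the absolute log2 fold change over the square root of F. For correlations, CPM were put on a log2 scale with a prior count of 2. Lengths and coordinates are those of GENCODE M21 (GRCm38), and promoter sequences those of RefSeq. The method was also run on simulated independent counts, with changes larger than 1.5-fold and no reads from granulosa cells. That run therefore does not bear on calls near 1.5-fold or on such reads. The study calls the pools of a cohort independent, but neither it nor the labels say which mice each pool came from, so p-values measure the spread between these pools. Pools of the same replicate number in different cohorts were not treated as pairs. Of 18 correlations of their deviations from cohort means, 0 were above 0.1 (-0.44 to 0.08). Pools of different numbers were not correlated for comparison, so this check cannot tell whether the numbers pair the pools.

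Members, lists and the rule for named genes were chosen with earlier results of these data known. All 10 members were named in every comparison that called them and in competent vs. non-competent, their paralogs were given, the 2 called genes with the largest change were named in each list, and for each called member the 3 genes of at least 1 CPM with the highest r, of which 1 is not reported here. Cbll1 and some uncalled list members were added after their values were seen. Alternatives were DESeq2 1.42.0, RLE, upper-quartile and total-count scaling, no or a stricter count filter, limma 3.58.1 on the deposited log2 values, only the cohorts compared, a model of all 4 cohorts, no minimum fold, a replicate block, each pool left out and, chosen after the data were seen, the 3 pools highest in granulosa markers left out.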

Additional observations from a re-analysis of the deposited data

Results flagged for a closer look

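The lowest Btg4 level among the 6 non-competent pools, 807 CPM in PND13 replicate 3, stood apart from the other 5, which lay between 893 and 938 CPM. Its gap to the nearest pool was 0.659 of the range of the group, above Dixon's critical value for 6 samples. Chance alone gives about 1 such value in 20 groups, and 20 groups (10 genes, competent and non-competent) were examined. The same pool had 542 CPM of granulosa and cumulus markers and the lowest Cnot7 level of all pools (284 CPM). Without any 1 pool, the difference of Btg4 between competent and non-competent oocytes stayed between 0.39 and 0.44 on the log2 scale.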

How the results depend on the processing

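No direction reversed under any setting among the 26 member results recomputed, the 10 of competent vs. non-competent and the 16 pairwise calls. The 44 uncalled pairwise differences were not recomputed. Calls of Ythdf2 in competent oocytes and at PND40 against PND13 and PND16 Small, and calls of Pabpn1l at PND40 against each other cohort, were kept under all of them. Depth limits the low paralogs and the list genes at low CPM, such as Pnrc2. Each member had at least 638 reads in every pool. Without the minimum fold, called genes numbered 129 (PND16 Small vs. PND13), 3567 (PND16 Large vs. PND13), 4612 (PND40 vs. PND13), 1715 (PND16 Large vs. PND16 Small), 4207 (PND40 vs. PND16 Small), 953 (PND40 vs. PND16 Large) and 4283 (competent vs. non-competent), in place of 52, 1858, 2637, 863, 2395, 510 and 2087. Called members were then 8 in PND16 Large vs. PND13, 8 in PND40 vs. PND13, 5 in PND16 Large vs. PND16 Small, 6 in PND40 vs. PND16 Small, 4 in PND40 vs. PND16 Large and 6 in competent vs. non-competent. PND16 Small vs. PND13 had 361 called genes with DESeq2, 25 with total counts, 2 with only these cohorts in the model, 10 with the replicate block and 17 without the 3 pools highest in granulosa markers, and 0 members were called in the last 3. With only the cohorts compared, PND16 Large vs. PND16 Small had 475 called genes and PND40 vs. PND16 Large 1081, and DESeq2 called 782 in the latter. Without the 3 pools highest in granulosa markers, 1064 genes were called in PND16 Large vs. PND13 and 1506 in PND40 vs. PND13, with 3 members in the latter.

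When each pool was left out in turn, called genes ranged from 4 to 817 in PND16 Small vs. PND13 (4 without PND13 replicate 3, 5 without PND16 Small replicate 3, 89 without PND13 replicate 1, 817 without PND16 Small replicate 1), from 1154 (without PND16 Large replicate 1) to 1934 in PND16 Large vs. PND13, from 333 (without PND16 Large replicate 1) to 1144 in PND16 Large vs. PND16 Small and from 246 (without PND16 Large replicate 3) to 305 in PND40 vs. PND16 Large. Called members ranged from 0 to 2 in PND16 Small vs. PND13, from 0 to 3 in PND16 Large vs. PND16 Small (0 without PND16 Large replicate 1, 1 without PND16 Large replicate 2, PND16 Small replicate 2 or PND16 Small replicate 3) and from 3 (without PND13 replicate 3) to 6 in PND40 vs. PND13. The cause was not tested. Zfp36l2 lost its call in 4 of 6 such fits in both PND16 Large comparisons, in 2 of 6 in PND40 vs. PND13 (without PND13 replicate 3, adjusted p = 0.0821, or PND40 replicate 1, adjusted p = 0.0695) and in 1 of 6 in PND40 vs. PND16 Small (without PND40 replicate 1, log2 -0.58). Pabpn1l lost that of PND16 Large vs. PND16 Small in 4 of 6 (adjusted p 0.00640 to 0.103), and with only those cohorts in the model (adjusted p = 0.101). Ythdf2 fell below 1.5-fold in PND16 Large vs. PND16 Small without PND16 Large replicate 1 or PND16 Small replicate 3 (log2 -0.56 each). With total counts, Cnot7 in competent oocytes (log2 0.57) and Dcp1a in PND40 vs. PND13 (log2 0.55) were below 1.5-fold. That scaling moved the median of all genes to -0.12 in PND16 Small vs. PND13 and -0.13 (log2) in PND16 Large vs. PND13, and the share of lower calls from 51.9% to 76.0% in the former and from 73.6% to 83.2% in the latter. The replicate block changed 1 member's call, Pabpn1l in PND16 Small vs. PND13 (log2 -0.94, adjusted p = 0.0737). The labels do not say that the replicate numbers pair the pools.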
